A study of Homo sapiens with 8 samples.

Results

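The Fc receptor-like (FCRL) family was followed across 2 human multiple myeloma cell lines. Its members are FCRL1, FCRL2, FCRL3, FCRL4, FCRL5, FCRL6, FCRLA and FCRLB, which is 8 of the 14884 gene symbols named on the array. A row of the deposited table, one transcript cluster, was taken as a member when the platform annotation gave it one of these symbols, and every member had 1 such row. The family was chosen by the measured difference between the lines, FCRL2 being far higher in NCI-H929 than in MM1.S, so differences of its members between the lines are described here without a test. The effect of the hairpin described next played no part in that choice and was tested.

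The arrays form 4 groups of 2 arrays, 8 in all. The groups are NCI-H929 cells with a short hairpin construct silencing SIRT6 (shSIRT6), NCI-H929 cells with a scramble construct, MM1.S cells with shSIRT6 and MM1.S cells with scramble. All cells were grown in RPMI-1640 medium with 10% fetal bovine serum, and RNA was read on the GeneChip Human Gene 2.0 ST array. SIRT6 is an NAD-dependent deacetylase of chromatin. The labels name no other construct or treatment. They leave unsaid whether a group's arrays stem from independent cultures, and a p-value here reflects array-to-array spread that could be purely technical. In bulk RNA, fewer cells expressing a gene and less of its RNA per cell cannot be told apart.

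FCRL proteins are relatives of the classical Fc receptors, built from immunoglobulin-like domains and found mainly on B lineage cells. The membrane-bound members carry tyrosine motifs in their cytoplasmic tails. An ITIM recruits phosphatases that dampen signalling from the B cell receptor, and an ITAM-like motif can recruit activating kinases. FCRL5 is retained on plasma cells and myeloma cells and is used as a target of antibodies and engineered T cells. FCRLA and FCRLB lack a membrane anchor and stay inside the cell.

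All 8 members had a promoter in the RefSeq table of GRCh38.p14, and all 8 lie on chromosome 1. FCRL1 to FCRL5 form one cluster, and the promoters of FCRL2 and FCRL5, the members with the widest gap between the lines, are set here beside that of FCRL4, which lies in the same cluster and stayed low on every array, and that of FCRLA, the member that moved with the hairpin. Each stretch holds the 80 bases just before the annotated start, read 5′ to 3′ on the gene's own strand. Capitals mark ACTTCC, which is GGAAGT, the core recognised by ETS family factors, on the opposite strand.
FCRL2 (chr1:157777133-157777212, minus strand): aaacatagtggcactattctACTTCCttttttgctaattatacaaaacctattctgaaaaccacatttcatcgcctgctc
FCRL5 (chr1:157552516-157552595, minus strand): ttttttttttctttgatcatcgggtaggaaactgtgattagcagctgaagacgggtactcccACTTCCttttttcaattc
FCRL4 (chr1:157598086-157598165, minus strand): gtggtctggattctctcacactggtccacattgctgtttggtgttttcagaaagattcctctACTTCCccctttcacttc
FCRLA (chr1:161707149-161707228, plus strand): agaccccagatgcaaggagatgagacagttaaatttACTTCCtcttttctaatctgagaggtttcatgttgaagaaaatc

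GGAAGT was found on either strand of the 250 bases before the start in 6 of the 8 members, all but FCRL3 and FCRLB, and in 19.5% of the 35116 promoters in the table. It therefore stood before FCRL2 and FCRL5 and equally before FCRL1, which hardly differed between the lines, and FCRL4. In FCRL5 and FCRL4 a copy began 18 bases before the start, in FCRL2 60 bases before it and in FCRLA 44 bases before it. The longest stretch common to any of the 28 pairs of members was ACTTCCTTTTTT, 12 bases, shared by FCRL2 and FCRL5 on the gene's own strand and present in 0.0342% of all promoters. Of the other letters searched, CAGCTG (an E-box) was in FCRL5, FCRL6 and FCRLA and in 14.0% of all promoters. TGCAAAT, the octamer core, was in FCRLB and in 3.67%, and TATAAA in none of the 8 and in 10.7%. The core of the interferon response element was in FCRL1 and FCRLA and in 3.02%, and the ETS and IRF composite in FCRL6 and in 2.41%. These last elements can overlap each other and GGAAGT, and each was searched on both strands. The letters searched were chosen after the sequences had been seen, and a match describes the sequence alone.

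Levels are log2 values as deposited, where a difference of 1 is a factor of 2. Levels of different genes come from different probes and are not set against each other. The membrane receptors FCRL2, FCRL5 and FCRL3 were high in NCI-H929 and low in MM1.S, led by FCRL2, whose group means differed 40.1-fold between the scramble arrays. The FCRL2 levels in MM1.S, 3.18 to 3.94, were near the filter level and could not be judged against background, so the size of this fold is uncertain. The intracellular members FCRLA and FCRLB were also higher in NCI-H929, by smaller steps, and FCRL6 was lower there. FCRL1 scarcely differed between the lines, and FCRL4 was under the filter level on every array. The plots of levels by array show this pattern.

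**Figure D1:**
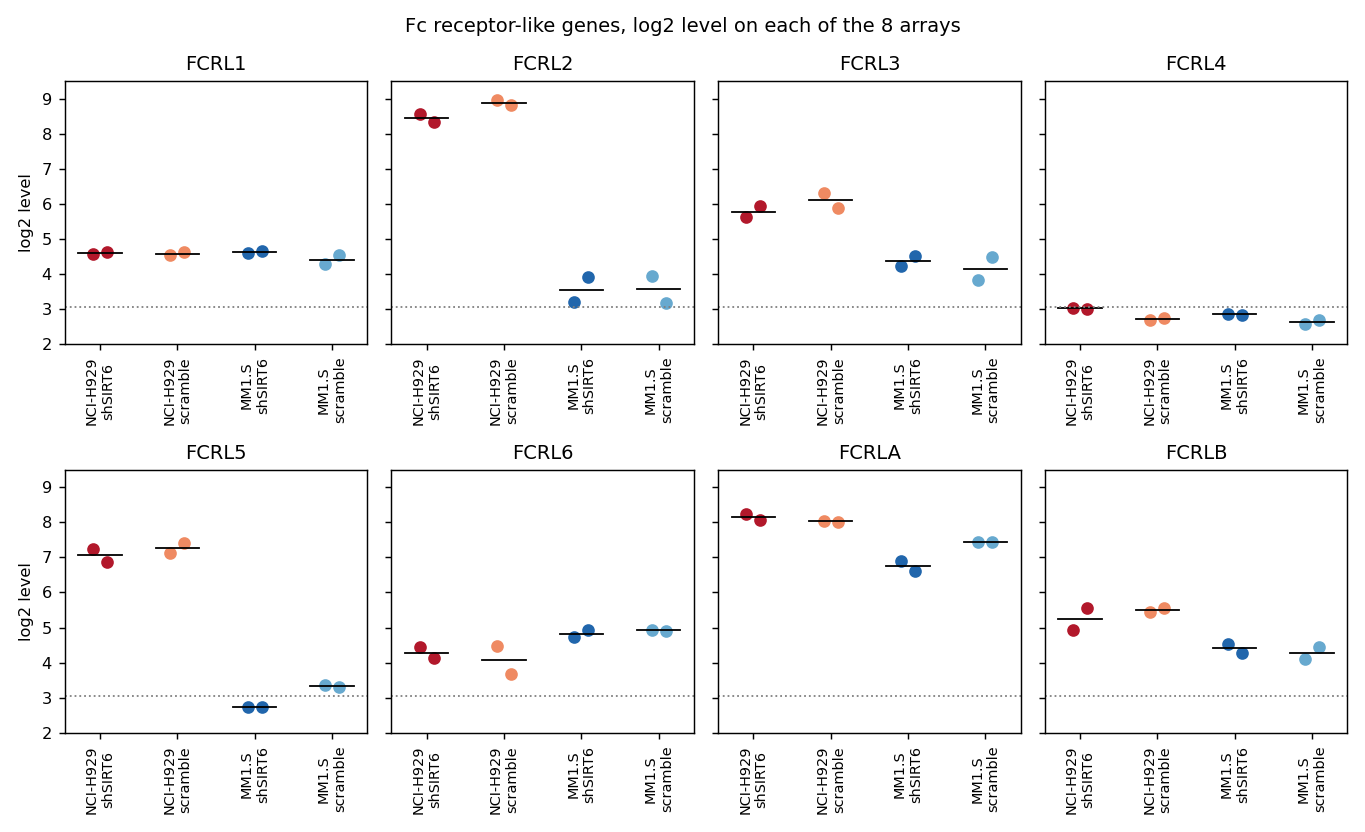
Log2 level (y axis, the same for all panels) of each Fc receptor-like gene in the 4 groups (x axis). Points are single arrays, 2 per group, horizontal bars are group means, and the dotted line is the filter level of 3.045. FCRL2, FCRL5 and FCRL3 separate the NCI-H929 arrays from the MM1.S arrays, FCRLA is lower in MM1.S with shSIRT6 than in MM1.S with scramble, and all FCRL4 points lie under the line.

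FCRL2, a B cell receptor with both ITIM and ITAM-like motifs (cluster 16694960), had log2 levels of 8.56 and 8.32 in NCI-H929 with shSIRT6, 8.96 and 8.81 in NCI-H929 with scramble, 3.19 and 3.91 in MM1.S with shSIRT6, and 3.94 and 3.18 in MM1.S with scramble. All 4 NCI-H929 arrays lay above all 4 MM1.S arrays, with a gap of 4.38 between the nearest arrays of the lines. The log2 difference, NCI-H929 minus MM1.S, was 5.33 with scramble and 4.89, or 29.7-fold, with shSIRT6. Both rest on low MM1.S levels that could not be judged against background. Among the 12734 genes tested, FCRL2 ranked 3 from the highest in the scramble arrays. Group means were 8.44 ± 0.17 and 8.89 ± 0.11 in NCI-H929 with shSIRT6 and with scramble, and 3.55 ± 0.51 and 3.56 ± 0.54 in MM1.S with shSIRT6 and with scramble (SD, n = 2 each).

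FCRL5, which binds IgG and restrains B cell receptor signalling (cluster 16694886), had log2 levels of 7.24 and 6.87 in NCI-H929 with shSIRT6, 7.13 and 7.41 in NCI-H929 with scramble, 2.73 and 2.72 in MM1.S with shSIRT6, and 3.35 and 3.30 in MM1.S with scramble. The lines did not overlap and lay 3.52 apart at the nearest arrays. The log2 difference between the lines was 3.95 with scramble and 4.33 with shSIRT6. Both MM1.S arrays with shSIRT6 were under 3.045, the level below which a gene's mean kept it out of testing, and the mean of the 4 MM1.S arrays was 3.03. FCRL5 passed that filter through its NCI-H929 arrays. Its MM1.S levels could not be judged against background, so no fold is given and the values with the 2 constructs are not ranked by size.

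FCRL3, a receptor with an ITIM and an ITAM-like motif that binds secretory IgA (cluster 16694928), had log2 levels of 5.61 and 5.93 in NCI-H929 with shSIRT6, 6.32 and 5.87 in NCI-H929 with scramble, 4.22 and 4.52 in MM1.S with shSIRT6, and 3.83 and 4.47 in MM1.S with scramble. Again no MM1.S array reached an NCI-H929 array, and the nearest arrays were 1.09 apart. The log2 difference was 1.95 with scramble, a 3.85-fold difference, and 1.40 with shSIRT6, a 2.64-fold difference.

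The remaining members of the same cluster looked different. FCRL1, an activating-type receptor of B cells (cluster 16694980), had log2 levels of 4.58 and 4.63 in NCI-H929 with shSIRT6, 4.53 and 4.62 in NCI-H929 with scramble, 4.60 and 4.64 in MM1.S with shSIRT6, and 4.29 and 4.53 in MM1.S with scramble. The lines overlapped, with a log2 difference of 0.17 with scramble and −0.015 with shSIRT6. FCRL4, an inhibitory receptor of a subset of memory B cells that binds IgA (cluster 16694913), had log2 levels of 3.04 and 3.0 in NCI-H929 with shSIRT6, 2.68 and 2.74 in NCI-H929 with scramble, 2.87 and 2.83 in MM1.S with shSIRT6, and 2.58 and 2.68 in MM1.S with scramble. All 8 FCRL4 values were under the filter level and its mean was 2.80, so it was not tested. FCRL4 was the only member left out, and 7 of 8 members passed.

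FCRL6, known from cytotoxic T cells and NK cells and able to bind MHC class II (cluster 16672462), had log2 levels of 4.44 and 4.12 in NCI-H929 with shSIRT6, 4.46 and 3.68 in NCI-H929 with scramble, 4.74 and 4.92 in MM1.S with shSIRT6, and 4.94 and 4.90 in MM1.S with scramble. It was the one member whose NCI-H929 arrays all lay below its MM1.S arrays, by 0.28 at the nearest arrays. The log2 difference was −0.85 with scramble and −0.55 with shSIRT6.

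FCRLA, a soluble protein of the endoplasmic reticulum that binds immunoglobulins inside B cells (cluster 16672946), had log2 levels of 8.23 and 8.07 in NCI-H929 with shSIRT6, 8.05 and 8.02 in NCI-H929 with scramble, 6.89 and 6.61 in MM1.S with shSIRT6, and 7.44 and 7.43 in MM1.S with scramble. Each MM1.S array was below each NCI-H929 array, and within MM1.S both shSIRT6 arrays were below both scramble arrays. The log2 difference between the lines was 0.60 with scramble and 1.40 with shSIRT6. FCRLB, its intracellular relative (cluster 16672961), had log2 levels of 4.94 and 5.56 in NCI-H929 with shSIRT6, 5.43 and 5.57 in NCI-H929 with scramble, 4.54 and 4.28 in MM1.S with shSIRT6, and 4.09 and 4.44 in MM1.S with scramble. Its lines did not overlap either, with log2 differences of 1.24 with scramble and 0.84 with shSIRT6.

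Across both constructs, 5 of the 7 tested members had all NCI-H929 arrays above all MM1.S arrays and 1 had them all below, beside 21.2% and 20.2% of all genes tested. These shares are given for orientation, since the line difference chose the family. The spread between arrays of a group, pooled over the 4 groups, was 0.38 on the log2 scale for FCRL2, 0.32 for FCRL3, 0.31 for FCRL6, 0.27 for FCRLB, 0.17 for FCRL5, 0.11 for FCRLA and 0.093 for FCRL1, against a median of 0.14 over all genes tested. FCRL2 varied more between arrays of a group than 97.7% of genes and FCRL3 more than 94.5%. For FCRL2 the wide spread came from MM1.S, where the levels were low.

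The hairpin comparison asked whether silencing SIRT6 shifted the family. SIRT6 itself had log2 levels of 6.25 and 6.31 in NCI-H929 with shSIRT6 against 6.53 and 6.97 with scramble, and 5.60 and 5.78 in MM1.S with shSIRT6 against 6.09 and 5.88 with scramble. Both hairpin arrays were lower in each line, by −0.47 ± 0.16 in NCI-H929 and −0.30 ± 0.16 in MM1.S (SE), and neither difference passed the test (limma, Benjamini-Hochberg adjusted p = 0.276 and 0.355). The target of the hairpin was thus lower by a step that did not pass on these arrays.

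In MM1.S, FCRLA fell with the hairpin and was the only member that passed the test. Its mean was 6.75 ± 0.20 with shSIRT6 and 7.44 ± 0.0071 with scramble (SD, n = 2 each), a log2 difference of −0.69 ± 0.12 (SE, 95% interval −0.97 to −0.40, limma adjusted p = 0.0479), which is 0.622 of the scramble level. The adjusted p lay close to the threshold of 0.05. The call was lost in 15 of 18 alternative settings, including each setting that left out an array and the fit with the replicate number as a block (adjusted p = 0.136). The log2 difference itself stayed between −0.83 and −0.55 in all 18.

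FCRL5 was also lower in both MM1.S arrays with shSIRT6, at a mean of 2.73 ± 0.0071 against 3.33 ± 0.035 with scramble (SD, n = 2 each). The log2 difference was −0.60 and it was not called. Both means lie near or under the filter level, where differences could not be judged against background, so it is given as a value only. FCRL1 was higher in both MM1.S hairpin arrays, by 0.21 ± 0.11 (SE, adjusted p = 0.339), and FCRL2 was level, at −0.01 ± 0.29 with a 95% interval of −0.70 to 0.68. FCRL3, FCRL6 and FCRLB had log2 differences between −0.09 and 0.22, each with overlapping arrays and adjusted p of 0.660 to 0.866.

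One of the 7 tested members was thus called in MM1.S, where 1.33% of all genes were called and 1.12% were called lower. Before adjustment, FCRLA had a p below 0.05, beside 19.6% of all genes, and the p of FCRL5 is left aside since its MM1.S levels lie at the filter. Arrays of the constructs did not overlap for FCRL1, FCRL5 and FCRLA, beside 50.7% of all genes. The median log2 difference of the 7 members was −0.01, and that of all genes 0.005.

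In NCI-H929 no member passed the test. FCRL2, at its high level in this line, had a mean of 8.44 ± 0.17 with shSIRT6 and 8.89 ± 0.11 with scramble (SD, n = 2 each). The log2 difference was −0.45 ± 0.29 (SE, 95% interval −1.13 to 0.24, adjusted p = 0.518), and both hairpin arrays lay below both scramble arrays. FCRL5 differed by −0.22 ± 0.15 (SE, 95% interval −0.56 to 0.13, adjusted p = 0.535), with overlapping arrays. FCRLA differed by 0.12 ± 0.12 (SE, 95% interval −0.17 to 0.40, adjusted p = 0.687), with both hairpin arrays above both scramble arrays. FCRL1, FCRL3, FCRL6 and FCRLB had log2 differences between −0.33 and 0.21 and adjusted p of 0.578 to 0.918.

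None of the 7 tested members was called by limma in NCI-H929 (0 of 7, and 0 at an unadjusted p below 0.05), where 0.0236% of all genes were called and 14.5% had an unadjusted p below 0.05. Arrays did not overlap for FCRLA and FCRL2, beside 46.6% of all genes. The median log2 difference of the members was −0.22, and that of all genes −0.045. The interval for FCRL2 holds both 0 and a fall of more than 1 on the log2 scale. A change within it was not detectable in this fit. The fit pools the spread of all 4 groups, so the MM1.S arrays help set these intervals. For FCRL2 the SD in MM1.S was 0.51 with shSIRT6 and 0.54 with scramble, wider than in NCI-H929. With NCI-H929 fitted alone, its limma adjusted p was 0.326. For FCRL5 the SD in MM1.S, 0.0071 and 0.035, was narrower than in NCI-H929, 0.26 and 0.20.

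**Figure D2:**
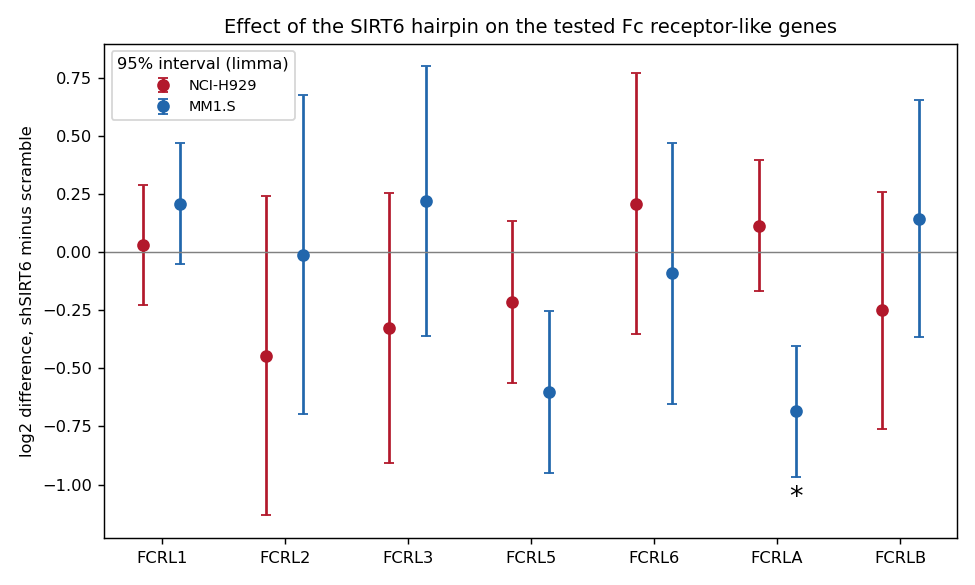
Log2 difference, shSIRT6 minus scramble (y axis), for the 7 tested Fc receptor-like genes (x axis), in NCI-H929 (red) and MM1.S (blue). Points are limma estimates from 2 arrays per group, bars are 95% intervals from the spread pooled over the 4 groups, and the asterisk marks an adjusted p below 0.05. The asterisk stands at FCRLA in MM1.S, at −0.69, a call lost in 15 of 18 alternative settings. The FCRLA estimate in NCI-H929 was 0.12, and the difference between the lines was not called (limma adjusted p = 0.150).

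Averaged over the lines, 0 of 7 members were called by limma, beside 0.0864% of all genes, where 21.3% of all genes had an unadjusted p below 0.05. FCRLA had a mean log2 difference of −0.29 ± 0.086 (SE, adjusted p = 0.135). FCRL5 had −0.41, part of which comes from its MM1.S levels at the filter. The difference between the lines in the hairpin effect, NCI-H929 minus MM1.S, was largest for FCRLA, at 0.80 ± 0.17 (SE, 95% interval 0.40 to 1.20). Its unadjusted p was 0.00194 and its adjusted p 0.150, so a difference between the lines was not called for FCRLA. No member was called in this comparison (0 of 7, beside 0.204% of all genes), and FCRLA alone had an unadjusted p below 0.05, beside 13.8%.

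The surroundings on chromosome 1 were read for the same line contrast. For each of the 3 places where the family lies, the 12 named protein-coding genes on either side in RefSeq order were taken, 59 genes that are no members, of which 55 were tested. In NCI-H929 with scramble, 23 of the 55 were called higher and 2 lower than in MM1.S with scramble (limma, adjusted p below 0.05), beside 20.0% and 18.3% of all genes. Their median log2 difference was 0.25, and that of all genes 0.03. None of the 55 was called with the hairpin in either line.

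The genes directly next to the FCRL1 to FCRL5 cluster, ETV3 and CD5L, differed less than FCRL5, FCRL3 and FCRL2. The family was chosen by the line difference, so this is a description. ETV3, an ETS family repressor next to FCRL5, had log2 levels of 8.09 and 8.28 in NCI-H929 with scramble against 7.17 and 7.39 in MM1.S with scramble, a called difference of 0.91 ± 0.14 (SE, adjusted p = 0.00173). CD5L, a secreted scavenger receptor protein next to FCRL1, had 4.83 and 5.31 against 5.29 and 4.92, a difference of −0.035 ± 0.24 (SE, adjusted p = 0.929). Inside the cluster, FCRL4 at 0.08 lies between FCRL5 at 3.95 and FCRL3 at 1.95, and FCRL1 at 0.17 lies between FCRL2 at 5.33 and CD5L. FCRL3 and FCRL2, both with large differences, are adjacent. The row of FCRL4 was under the filter level on all 8 arrays, so its value near 0 does not show that FCRL4 is alike in the lines.

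The widest differences among the neighbours lay farther out. SLAMF6, a receptor of lymphocytes, was lower in NCI-H929, with 3.41 and 3.14 in NCI-H929 with scramble against 8.13 and 8.18 in MM1.S with scramble, a difference of −4.88 ± 0.14 (SE, adjusted p = 1.22e-06). SH2D2A, an adaptor of T cell signalling, had 8.09 and 7.87 against 4.32 and 4.39, a difference of 3.63 ± 0.36 (SE, adjusted p = 1.99e-04). On the far side of FCRLA and FCRLB, UAP1, which makes the sugar donor UDP-N-acetylglucosamine, was higher in NCI-H929 by 2.43 ± 0.11 and DDR2, a collagen receptor kinase, by 2.26 ± 0.13 (SE, adjusted p = 6.80e-06 and 1.49e-05). The plot of the loci gives the order of genes and their differences.

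**Figure D3:**
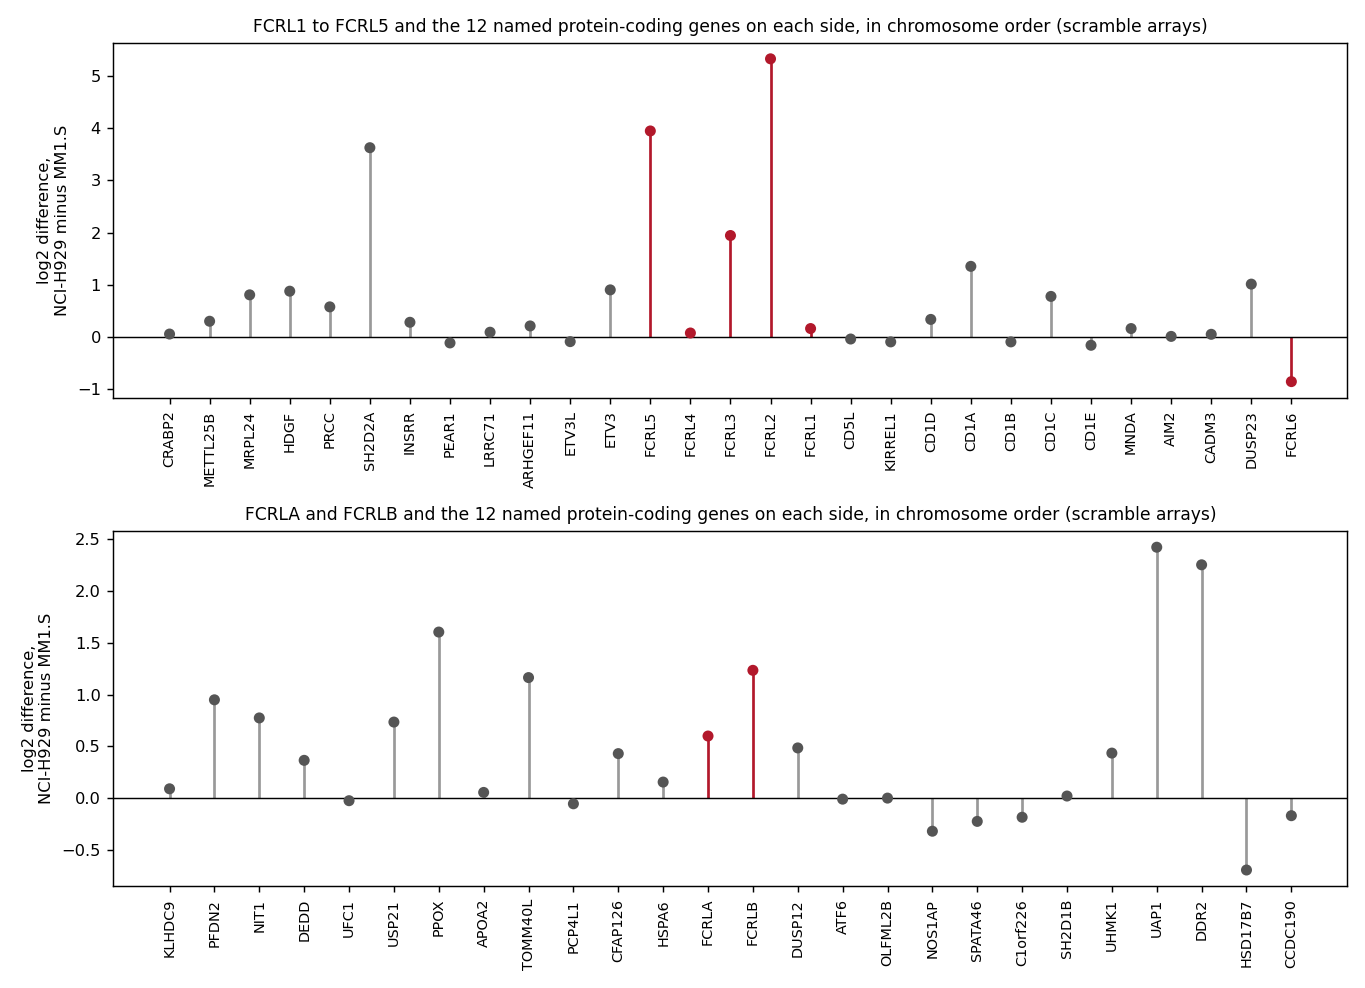
Log2 difference, NCI-H929 minus MM1.S in the scramble arrays (y axis), for genes in chromosome order (x axis, order and not distance) around FCRL1 to FCRL5 (top) and around FCRLA and FCRLB (bottom). Red marks Fc receptor-like genes, including FCRL6 at the right end of the top panel, and grey marks the other genes, each point being a difference of means of 2 arrays. FCRL5, FCRL3 and FCRL2 stand well above 0 while FCRL1 lies near it, as does FCRL4, whose levels were under the filter on all arrays.

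Genes whose 8 log2 values, each centred on its own mean, lay closest to those of FCRL2 were CTAG1A (a cancer-testis antigen with a near-identical copy, so its probes may read both), LAPTM4B (a lysosomal membrane protein), TSSC2, MLC1 (a membrane protein of astrocytes) and TSHR (the thyrotropin receptor). Their root mean square differences over the 8 arrays were 0.390, 0.425, 0.455, 0.462 and 0.500, and that of FCRL5 was 0.602. All 5 had the contrast of the lines, with log2 differences of 4.40 to 5.28 in the scramble arrays. They were picked by likeness to FCRL2, so this follows from the choice. The genes closest to FCRLA were FCF1, MAP10, LOC100130691, ACTR10 and TOMM34, at 0.0908 to 0.118. Like FCRLA they were higher in NCI-H929 and lowest in MM1.S with shSIRT6, which again follows from how they were picked. FCF1, which processes ribosomal RNA, had 5.65 and 5.36 there against 6.27 and 6.13 in MM1.S with scramble.

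The signalling partners of the receptors were compared between the lines from lists drawn up from textbook roles. The lists were chosen with earlier results of these data known, so their counts are a description. Partners of the tyrosine motifs split in both directions. Of 13 tested genes, 3 were called higher in NCI-H929 with scramble and 4 lower, beside 20.0% and 18.3% of all genes. Their median log2 difference was −0.015, and that of all genes 0.03. SYK, the kinase that docks on phosphorylated ITAMs, was low in NCI-H929, at 3.20 and 3.35 with scramble against 7.26 and 7.35 in MM1.S with scramble, a difference of −4.03 ± 0.13 (SE, limma adjusted p = 1.34e-06). LYN, the Src family kinase that phosphorylates both kinds of motif, was higher, at 8.97 and 9.03 against 7.83 and 7.86, a difference of 1.16 ± 0.091 (SE, adjusted p = 7.22e-05). The line with high FCRL2, FCRL5 and FCRL3 had the higher LYN and the lower SYK level. Both were picked from 13 partners that split in both directions, and a link to the receptors was not tested. The SYK levels in NCI-H929 were near the filter level, so the size of its difference could not be judged against background.

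In the same list, CR2, the complement receptor, was lower in NCI-H929 by −2.43 ± 0.12 (means of 3.85 against 6.28 with scramble), and CD81, a tetraspanin, was higher by 1.10 ± 0.16 (5.74 and 5.83 against 4.58 and 4.80). The adaptor GAB1 was lower by −0.99 ± 0.095 and GAB2 by −0.94 ± 0.15, and the phosphatase INPPL1 was higher by 0.36 ± 0.12 (SE, adjusted p = 0.0451). GAB2 was at 3.16 and 3.01 in NCI-H929 with scramble, near the filter level, so its difference could not be judged against background. PTPN6, PTPN11 and INPP5D, the phosphatases best known to bind ITIMs, had no named row here and were not analysed.

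Genes of B cell receptor signalling, another list, were called in 9 of 10 tested cases, beside 38.3% of all genes. With scramble, 4 were higher and 5 lower in NCI-H929, beside 20.0% and 18.3% of all genes. The median was −0.34, and that of all genes 0.03. Only 10 of the 23 listed genes had a named row, so the count does not cover the pathway. BLNK, the adaptor that SYK phosphorylates, was at 4.90 and 5.28 in NCI-H929 with scramble against 8.49 and 8.39 in MM1.S with scramble, a difference of −3.35 ± 0.15 (SE, adjusted p = 4.74e-06). RASGRP3, an activator of RAS, was lower by −1.74 ± 0.098, DAPP1, an adaptor of lipid signalling, by −1.31 ± 0.14, and MALT1, a protease of the NF-kB branch, by −0.83 ± 0.11. The exchange factor VAV2 was higher by 1.14 ± 0.17, and the kinase BTK by 0.81 ± 0.14 (SE, adjusted p = 0.00132 and 0.00297).

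Other inhibitory receptors of B cells were called in 3 of 8 tested cases, near the 38.3% of all genes. PECAM1, an ITIM-bearing adhesion receptor, was higher in NCI-H929 by 1.52 ± 0.16 and CD300A, another ITIM receptor, by 0.96 ± 0.11, while CEACAM1 was lower by −0.62 ± 0.15 (SE, adjusted p = 2.66e-04, 4.91e-04 and 0.0142). Of the classical Fc and immunoglobulin receptors only 3 of 16 had a named row. FCMR, the receptor for IgM, was lower in NCI-H929 by −0.66 ± 0.11 (SE, adjusted p = 0.00249), and PIGR and TRIM21 were not called. None of the 21 immunoglobulin chains and MHC class II genes listed as candidate ligands had a named row.

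Transcription factors of B and plasma cells were called in 8 of 17 tested cases, beside 38.3% of all genes. Of these, 4 went in each direction, and the median over the list was 0.12, beside 0.03 for all genes. TCF3 was higher in NCI-H929 by 0.93 ± 0.12, XBP1 by 0.66 ± 0.096, POU2F2 by 0.74 ± 0.15 and EBF1 by 0.41 ± 0.13. IRF8 was lower by −1.05 ± 0.12, MEF2C by −0.65 ± 0.094, ETS1 by −1.05 ± 0.15 and IKZF1 by −0.65 ± 0.095 (SE). Over the 6 lists, 28 of 51 tested genes were called between the lines, 54.9%, beside 38.3% of all genes. BANK1 and EBF1 are among the 28. Both were under the filter level in MM1.S with scramble, EBF1 at 3.03 and 2.83, so their differences could not be judged against background. The lists name 115 genes, most of them not tested, and were chosen with earlier results known, so no excess is claimed.

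**Figure D4:**
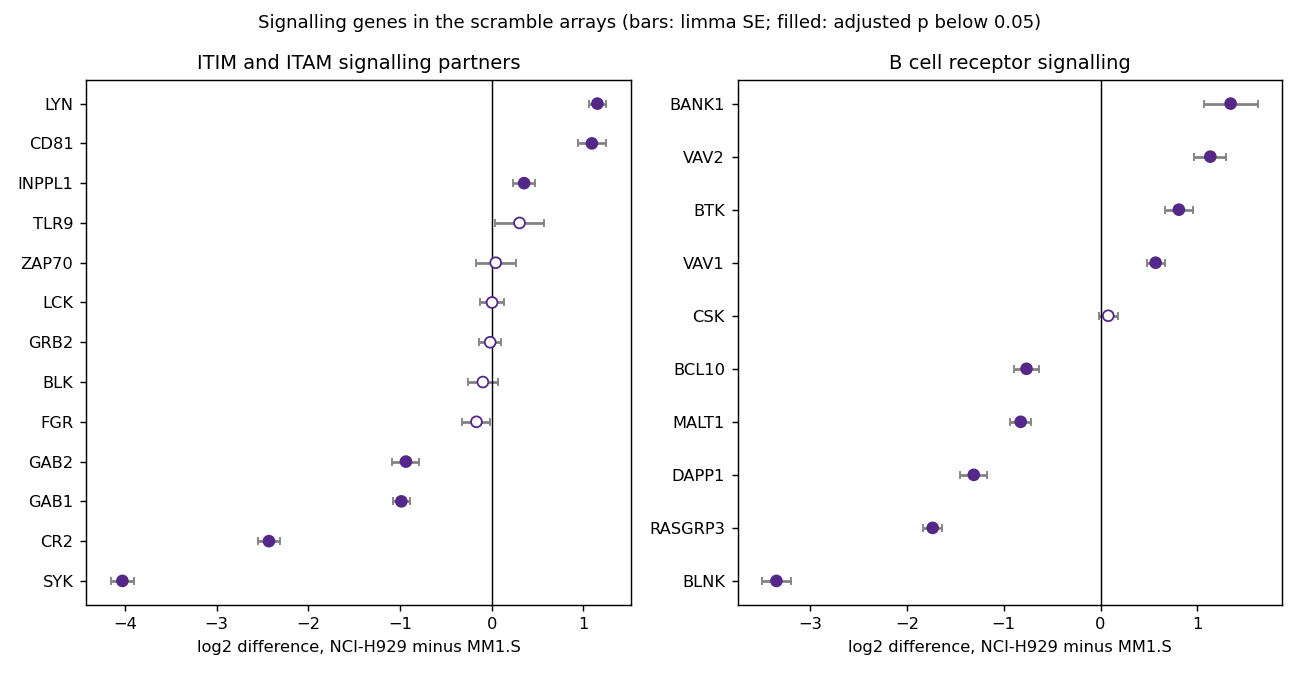
Log2 difference, NCI-H929 minus MM1.S in the scramble arrays (x axis), for tested partners of ITIM and ITAM motifs (left) and B cell receptor signalling genes (right). Points are limma estimates from 2 arrays per group, bars are the SE, and filled points have an adjusted p below 0.05. SYK at −4.03 and BLNK at −3.35 lie farthest to the left, and LYN at 1.16 and BANK1 at 1.35 farthest to the right. The BANK1 levels in MM1.S with scramble were under the filter level, and the SYK levels in NCI-H929 with scramble were near it.

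The hairpin called 1 of these 51 genes in MM1.S, 1.96% beside 1.33% of all genes, and 0 in NCI-H929 (limma, with 10 and 3 at an unadjusted p below 0.05). The called gene was FCMR, which rose, with 9.76 and 9.72 in MM1.S with shSIRT6 against 9.04 and 9.14 with scramble, a difference of 0.65 ± 0.11 (SE, adjusted p = 0.0452). FCMR thus stood opposite to FCRLA in the same arrays. Leaving out any single array ended its call as well. SDC1, the plasma cell surface marker CD138, rose alongside it, with 8.73 and 8.72 in MM1.S with shSIRT6 against 8.18 and 8.23 with scramble, a difference of 0.52 ± 0.091 (SE, adjusted p = 0.0461), and it was the only gene called among the marker lists in either hairpin comparison. The part of that marker's rise in the FCRLA result was not tested. BTK had 5.90 and 6.11 against 6.77 and 6.60, a difference of −0.68 ± 0.14, and CD81 had 5.23 and 5.60 against 4.58 and 4.80, a difference of 0.73 ± 0.16, and neither passed (SE, adjusted p = 0.0683 and 0.0734). In NCI-H929 the lowest p of these lists belonged to CD300A, with 7.20 and 7.42 with shSIRT6 against 7.70 and 7.68 with scramble, a difference of −0.38 ± 0.11 that did not pass (SE, adjusted p = 0.248). In MM1.S CD300A differed the other way, with 7.30 and 7.15 against 6.69 and 6.78, by 0.49 ± 0.11 (SE, adjusted p = 0.0860).

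Markers were read to check what the lines are. Over 9 plasma cell markers with a named row, the mean log2 level per array was 8.96 to 9.07 in NCI-H929 and 8.77 to 8.83 in MM1.S. IRF4 was at 11.65 to 11.74 in NCI-H929 and 11.23 to 11.61 in MM1.S, and was not called. POU2AF1 was at 5.30 to 5.48 and 5.19 to 5.43, and CD27 at 4.81 to 5.23 and 5.03 to 5.31. With scramble, 3 of the 9 were called higher in NCI-H929, CD38, XBP1 and SDC1, and 1 lower, SLAMF7. Among all genes 20.0% were called higher and 18.3% lower. Over 10 B cell markers the mean per array was 3.74 to 3.78 in NCI-H929 and 3.80 to 3.94 in MM1.S. With scramble, 1 of the 9 tested was called higher in NCI-H929 and 1 lower, BANK1 and CR2. The BANK1 levels in MM1.S with scramble were under the filter level. Over 9 T and NK cell markers the mean per array was 4.93 to 5.13 against 4.55 to 4.61, where NCAM1, which myeloma cells can express, was called, at 8.84 against 5.30 with scramble. Over 9 myeloid markers it was 4.45 to 4.53 against 4.21 to 4.38, with CD68 called, and over 4 stromal markers 2.88 to 3.21 against 2.99 to 3.08, with none called. PAX5, a defining B cell factor, was at 3.90 to 4.36 in NCI-H929 and 3.77 to 4.19 in MM1.S. The part of other cell types in the differences of the FCRL genes was not tested. Median levels over all rows were 3.88 to 3.97 per array, and arrays of a group correlated at 0.989 to 0.992 across rows, against 0.942 to 0.950 between lines.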

How the data were processed

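RNA of 8 samples was read on arrays, 1 per sample. Values were deposited as log2 levels with 2 decimals, and per the submitters' processing notes they come from RMA and the Transcriptome Analysis Console, with hg19 as the build. The sources used here do not give versions. The table holds 48226 rows, of which 16098 have 1 gene symbol, 0 several and 32128 none here. Scanner files were not used, so no probe could be set against its background.

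Groups came from the line and condition labels. The row with the highest mean stood for a gene (779 genes had over 1 row). Testing took in the 12734 genes whose mean exceeded 3.045, the 30th percentile over rows. Group means were fitted to the 8 arrays jointly with limma 3.58.1 (R 4.3.3), leaving 4 residual and 3.43 prior degrees of freedom. A call needed a p below 0.05 after Benjamini-Hochberg adjustment over all genes tested. The number of arrays limits the precision. The code was tested on simulated data.

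The members and lists were chosen with earlier results of these data known. Genes named are the members, SIRT6, per list and contrast at most 4 called genes by lowest p (otherwise the 2 with the lowest p), the 4 neighbours that differ most between the lines, and the 5 genes nearest to FCRL2 and to FCRLA. ETV3, CD5L, GAB2, VAV2, POU2F2, EBF1, IKZF1, PAX5, TRIM21, CD180, NR2C2AP and CXCR2 were named after their values were seen. Sequences are RefSeq's for GRCh38.p14. Alternatives changed the filter, scaling, choice of row, eBayes options, fitted arrays and a replicate block, and left out each array.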

Additional observations from a re-analysis of the deposited data

Results flagged for a closer look

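FCRLA was picked out because its shSIRT6 arrays lay above the scramble arrays in NCI-H929 and below them in MM1.S. In NCI-H929 the difference did not pass the test (limma adjusted p = 0.687). Both NCI-H929 arrays with shSIRT6 (8.23 and 8.07) lay above both with scramble (8.05 and 8.02), and both MM1.S arrays with shSIRT6 (6.89 and 6.61) lay below both with scramble (7.44 and 7.43). The difference of the hairpin effect, NCI-H929 minus MM1.S, was 0.80 ± 0.17 on the log2 scale (SE, limma adjusted p = 0.150), so it did not pass over all genes tested. Nearly all of it came from MM1.S, at −0.69, beside 0.12 in NCI-H929.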

How the results depend on the processing

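The 1 member called with the hairpin in MM1.S, FCRLA, became 0 without the filter (adjusted p = 0.0592), with quantile normalization (0.0629), cyclic loess (0.0505) or robust eBayes (0.0510), over all rows (0.0813), with each line fitted alone (0.153), and with a replicate block (0.136), and leaving out any array gave 0 to 0. It kept 1 with a stricter filter, the mean of rows and an eBayes trend, which also gave 1 call for the mean of both lines and 1 for their difference, both FCRLA (adjusted p = 0.0326 and 0.00869). Pathway genes called in MM1.S, 1 here, were 0 without the filter, over all rows, with the replicate block and with each line alone, 3 with the stricter filter, 7 with the trend, and 0 to 0 leaving out an array. Over all genes, the deviations of same-numbered arrays were hardly correlated (r = 0.077 in MM1.S and −0.001 in NCI-H929). A correlation over all genes cannot decide whether same-numbered arrays share a culture, since a shared effect could be limited to some genes. The fit with the replicate block is therefore kept beside the main one. All genes called in MM1.S, 169 here, ranged from 0 to 953, and in NCI-H929, 3 here, from 0 to 194. For the mean of both lines, 11 here, they ranged from 0 to 911, for the difference, 26 here, from 0 to 430, and for the lines, 4875 here, from 3713 to 9504.

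Only uncalled values changed sign. FCRL1 in NCI-H929 became −0.032 with loess and −0.0044 with quantile normalization, and FCRL6 in the mean became −0.018 with loess. Leaving out an array gave, in MM1.S, −0.39 to 0.37 for FCRL2, −0.10 to 0.54 for FCRL3 and −0.03 to 0.32 for FCRLB. In NCI-H929 it gave −0.015 to 0.075 for FCRL1, −0.18 to 0.60 for FCRL6 and −0.56 to 0.06 for FCRLB. In the mean it gave −0.21 to 0.11 for FCRL3, −0.14 to 0.26 for FCRL6 and −0.21 to 0.10 for FCRLB, and in the difference −0.09 to 0.69 for FCRL6. The cause was not tested. Each member's line difference moved by less than its spread between arrays in all 11 alternatives, with FCRL2 at 4.92 to 5.30, FCRL5 at 4.05 to 4.23 and FCRL3 at 1.51 to 1.83. Leaving out an array cannot move it by more than that spread, and averaging rows cannot move a member with 1 row. Only quantile normalization and cyclic loess could have given another outcome. Levels under or near the filter, FCRL4 on all arrays and FCRL5 and FCRL2 in MM1.S, could not be judged against background.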

Other observations

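Beyond FCRL2 and FCRL5, the stretch ACTTCCTTTTTT lay within 250 bases before the start of 10 other genes among the 12 that hold it in RefSeq's promoters. A named row was present for 5 of the 12, and 3 of these are no members and were tested. CD180, a Toll-like receptor homologue of B cells, was higher in NCI-H929 with scramble than in MM1.S with scramble by 2.71 on the log2 scale (limma adjusted p = 3.21e-05). NR2C2AP was higher by 0.59 (adjusted p = 0.00235), and CXCR2, a chemokine receptor of neutrophils, differed by 0.14 (adjusted p = 0.560). Among all genes tested, 20.0% were called higher in this comparison. The stretch was chosen after the sequences had been seen, and with 3 genes these values are a description only.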
